A study of Homo sapiens with 6 samples.

Results

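The RAS-ERK output and feedback genes are a set of 10 genes that the RAS-ERK pathway switches on and whose products, for the most part, hold the pathway back. They comprise 4 phosphatase genes (DUSP4, DUSP5, DUSP6 and DUSP7), 2 Sprouty genes (SPRY2 and SPRY4), 2 Sprouty-related genes (SPRED1 and SPRED2) and 2 transcription factor genes of the PEA3 group (ETV4 and ETV5). The members were chosen by gene name, and all 10 were found among the 58735 genes of the deposited tables. The RNA came from MDA-MB-231 cells, an established human triple-negative breast cancer (TNBC) line, labelled wild type. The cells were treated for 24 h with vehicle (3 samples) or with 100 mg/l SCH (3 samples), an extract of the herb that the labels call salvia chinensia benth. What the vehicle was is not given in the sources used here, and nothing says that the 3 samples of a group were separate cultures, so that the spread between them may be technical. Reads counted on genes came to 20291379, 18714240 and 18334857 in the vehicle samples and 16836369, 17979434 and 18414924 in the SCH samples.

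In the RAS-ERK pathway, an active RAS protein recruits RAF kinases, which activate MEK, which in turn activates the kinase ERK. ERK drives transcription, and some of the genes it drives encode its own brakes, so that their RNA is widely used as a reading of pathway output. DUSP4, DUSP5, DUSP6 and DUSP7 remove the activating phosphates from ERK, DUSP4 and DUSP5 in the nucleus and DUSP6 and DUSP7 in the cytoplasm. Sprouty proteins act between receptors and RAF, SPRED proteins bring the RAS inactivator neurofibromin to the membrane, and ETV4 and ETV5 are DNA-binding activators of the ETS family. MDA-MB-231 cells carry activating mutations in the pathway, so it is driven from within the cells and not only by receptors.

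The markers of the line were compared with its label first. VIM, AXL, EGFR and CD44, genes of mesenchymal-like breast cancer cells, stood at 263, 293, 43.2 and 96.6 FPKM in the vehicle samples. FPKM are fragments scaled to gene length and to a factor for each sample, as deposited, and give a level per length. The receptor genes ESR1 and PGR and the epithelial cadherin gene CDH1 had at most 6 counts in any sample. The other luminal markers were low but present, with EPCAM at 6.53 FPKM, GATA3 at 3.84 FPKM and FOXA1 at 0.995 FPKM in the vehicle samples, and the summed level of the 6 luminal markers was between 11.2 and 11.6 FPKM in the vehicle samples and between 8.54 and 9.58 FPKM in the SCH samples, with EPCAM the most abundant. The summed level of 5 fibroblast markers was between 0.614 and 0.741 FPKM in the vehicle samples and between 0.911 and 1.04 FPKM in the SCH samples, with COL1A1 the most abundant and no count for DCN. That of 4 leukocyte markers was between 0.226 and 0.262 FPKM in the vehicle samples, with PTPRC the most abundant, and between 0.0244 and 0.0988 FPKM in the SCH samples, where PTPRC and CD68 were at 0.031 FPKM each. After SCH, VIM and AXL fell, with log2 fold changes of -0.56 and -0.84, and so did EGFR, with -0.28, while CD44 did not pass the test. EPCAM and GATA3 fell, with -0.52 and -0.79, and FOXA1 rose by 1.16. At their low levels, COL1A1 rose by 0.76 and PTPRC fell, with -2.75, from 39, 37 and 34 counts to 4, 9 and 3 counts, and the part of these markers in the members' values was not tested. In RNA from bulk cells, a smaller share of cells that express a gene cannot be told apart from less of its RNA in each cell.

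The genes of the set did not move together. Of the 10 members, all of which passed the filter on low counts, 8 changed at an adjusted p under 0.05 (edgeR's quasi-likelihood test, Benjamini-Hochberg adjustment over 14736 genes), against 58.7% of all tested genes. DUSP6, SPRED1 and ETV5 rose, which is 3 of 10, against 29.3% of all tested genes. DUSP4, DUSP7, SPRY2, SPRY4 and ETV4 fell, which is 5 of 10, against 29.4%. The 3 SCH samples lay entirely to one side of the 3 vehicle samples in 9 members, against 62.4% of all tested genes, and SPRED2 was the exception. The median log2 fold change of the members was -0.036, beside -0.0034 over all tested genes, and no member reached an absolute value of 1. With a sample left out, the member median lay between -0.037 and -0.015. With library size alone as the normalization, 5 members were higher and 4 lower, and the median was 0.067, so the balance of directions rests on the scaling. Among the 4241 tested genes whose mean count lay within the members' range, a comparison added after the values were seen, 69.0% changed, and their median absolute log2 fold change was 0.23, beside 0.28 for the members. The share of changed members is therefore read here only against these backgrounds and not as a property of the set.

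**Figure D1:**
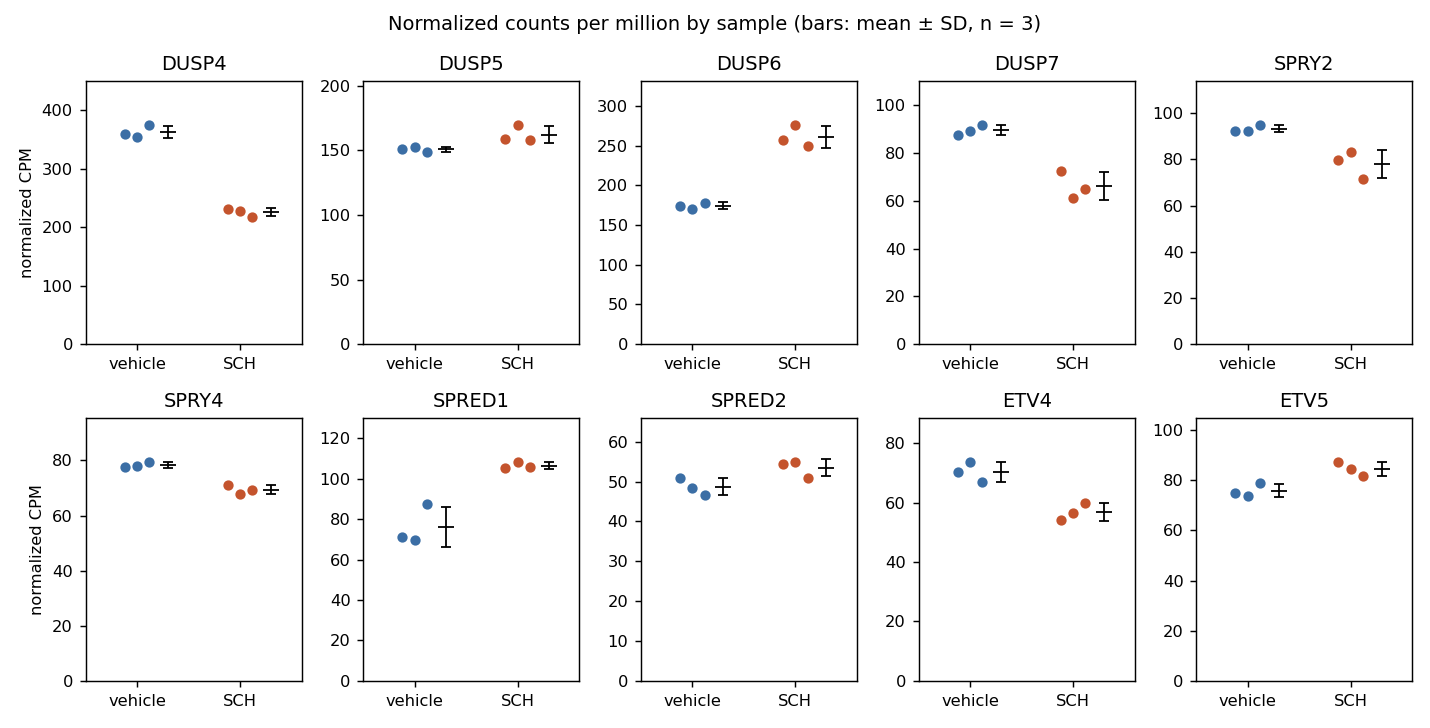
Normalized CPM (counts relative to library size) of each of the 10 members in the 3 vehicle and the 3 SCH samples. Each point is 1 sample, the bars give the mean ± SD, and every vertical axis starts at 0. DUSP4, DUSP7, SPRY2, SPRY4 and ETV4 lie lower after SCH, DUSP6, SPRED1 and ETV5 lie higher, and only in SPRED2 do the groups overlap.

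The largest fall in the set was that of DUSP4, which encodes a nuclear phosphatase of ERK. Its normalized CPM (CPM is the count relative to the library size, here scaled by TMM factors) were 360, 354 and 375 in the vehicle samples and 231, 228 and 218 in the SCH samples. All 3 SCH samples were far below all 3 vehicle samples, and the mean fell by 37.8%, from 363 ± 10.5 to 226 ± 6.82 (SD, n = 3). The log2 fold change was -0.69 (SE 0.047), with an adjusted p of 1.98e-11. The gene (ENSG00000120875) lies on the minus strand of chromosome 8, from 29333064 to 29350668 on GRCh38.

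DUSP6, the cytoplasmic phosphatase gene that is often read as a gauge of ERK activity, moved the other way. Its normalized CPM were 174, 170 and 178 in the vehicle samples and 256, 276 and 249 in the SCH samples. The lowest SCH sample stood well above the highest vehicle sample, and the mean went from 174 ± 4.34 to 261 ± 13.7 (SD, n = 3). The log2 fold change was 0.58 (SE 0.050), with an adjusted p of 8.67e-10, and this was the largest rise among the members. DUSP6 (ENSG00000139318) lies on the minus strand of chromosome 12, from 89347232 to 89353271. An antisense gene, AC024909.2, shares 40.5% of its exonic bases. The library protocol describes no step that keeps the strand, so reads from these bases cannot be told apart by gene. The antisense gene held 33, 37 and 35 counts in the vehicle samples and 59, 77 and 73 in the SCH samples, with a log2 fold change of 0.99 and an adjusted p of 1.97e-04. Whether reads on the shared bases were counted, left out or given to either gene is not given in the sources used here, so the part of the antisense gene in the values of DUSP6 was not tested, and the level of DUSP6 would be understated if they were left out.

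DUSP7, which encodes the close relative of DUSP6, fell as DUSP4 did. Its normalized CPM were 87.6, 89.4 and 91.8 in the vehicle samples and 72.4, 61.2 and 65.0 in the SCH samples. The vehicle samples were close to each other, while the SCH samples differed more, with a coefficient of variation of 8.54% against 2.32%. The log2 fold change was -0.44 (SE 0.061), with an adjusted p of 1.77e-06. DUSP7 (ENSG00000164086) lies on the minus strand of chromosome 3, from 52048919 to 52056550.

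DUSP5, the other nuclear phosphatase gene and the most abundant member per length, did not pass the test. Its normalized CPM were 151, 153 and 149 in the vehicle samples and 158, 170 and 158 in the SCH samples. The groups do not overlap, but the log2 fold change was 0.10 (SE 0.050), with an adjusted p of 0.0766. With library size alone as the normalization the value was 0.21 and passed, with an adjusted p of 9.69e-04, so that the call of DUSP5 rests on the scaling. DUSP5 (ENSG00000138166) lies on the plus strand of chromosome 10, from 110497838 to 110511544.

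On the FPKM scale, which allows levels of different genes to be added, the 4 phosphatase genes differed in makeup between the groups while the sum of their levels, as deposited, stayed within its spread. DUSP4 went from 48.4 ± 1.36 to 30.2 ± 1.02 FPKM and DUSP6 from 36.3 ± 0.88 to 54.6 ± 2.93 FPKM (SD, n = 3). DUSP5 was at 55.7 ± 0.80 and 60.2 ± 2.46 FPKM, and DUSP7 at 15.3 ± 0.35 and 11.4 ± 1.00 FPKM. The summed level of the 4 genes was 155.7 ± 1.66 FPKM in the vehicle samples and 156.4 ± 5.52 FPKM in the SCH samples, and the groups overlap. Scaled by library size alone, the sum was 155.3 ± 2.70 and 166.7 ± 5.88 FPKM, and the groups do not overlap, so whether the sum differed rests on the scaling. The deposited FPKM stood at 0.995 to 1.01 times the library size scale in the vehicle samples and 0.937 to 0.941 times in the SCH samples. The makeup of that sum differed in every sample, since DUSP4 held between 30.6% and 31.6% of it in the vehicle samples and between 18.8% and 19.8% in the SCH samples. DUSP6 held between 22.9% and 23.6% in the vehicle samples and between 34.5% and 35.7% in the SCH samples. These shares do not depend on how the samples were scaled against each other. The sum, the shares and the place of DUSP6 in the order of levels all rest on the deposited counts of DUSP6, and so on how reads on the bases shared with AC024909.2 were treated.

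**Figure D2:**
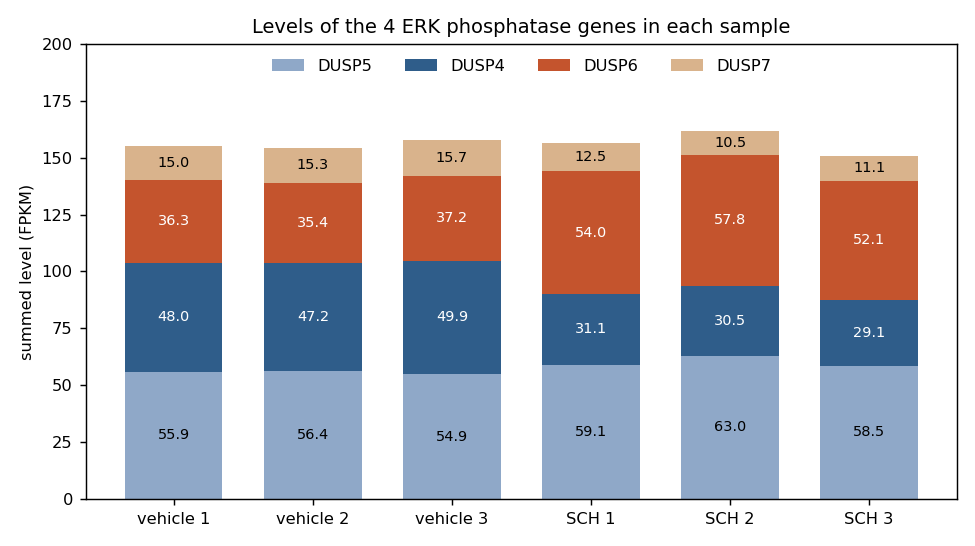
Level of the 4 ERK phosphatase genes in each of the 6 samples, stacked, in FPKM as deposited. Each bar is 1 sample and the number in each segment is the level of that gene. The bars reach between 150.8 and 161.9 FPKM, while the DUSP4 segment is smaller and the DUSP6 segment larger in the SCH samples.

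The difference between genes of the same role was taken within each sample, as the log2 ratio of their normalized CPM, which no scaling between samples can move. The log2 ratio of DUSP4 to DUSP6 was 1.05, 1.06 and 1.07 in the vehicle samples and -0.15, -0.28 and -0.19 in the SCH samples. DUSP4 thus held more counts than DUSP6 in every vehicle sample and fewer in every SCH sample, and the log2 ratio differed by -1.27 (SE 0.038) between the groups. The ratio of DUSP6 to DUSP7, the 2 cytoplasmic phosphatase genes, differed by 1.02 (SE 0.10), and that of DUSP4 to DUSP5, the nuclear ones, by -0.79 (SE 0.050). The ratios of DUSP5 to DUSP6, of DUSP5 to DUSP7 and of DUSP4 to DUSP7 differed by -0.48 (SE 0.035), 0.54 (SE 0.10) and -0.25 (SE 0.066). In each of these 6 pairs the groups do not overlap, and the exact two-sided permutation test gave p = 0.1, the smallest value that 3 samples against 3 can give. The phosphatase ratios share genes and samples, so they are not independent of each other. In all, 9 pairs were compared, and no adjustment over them can bring a p below that limit.

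**Figure D3:**
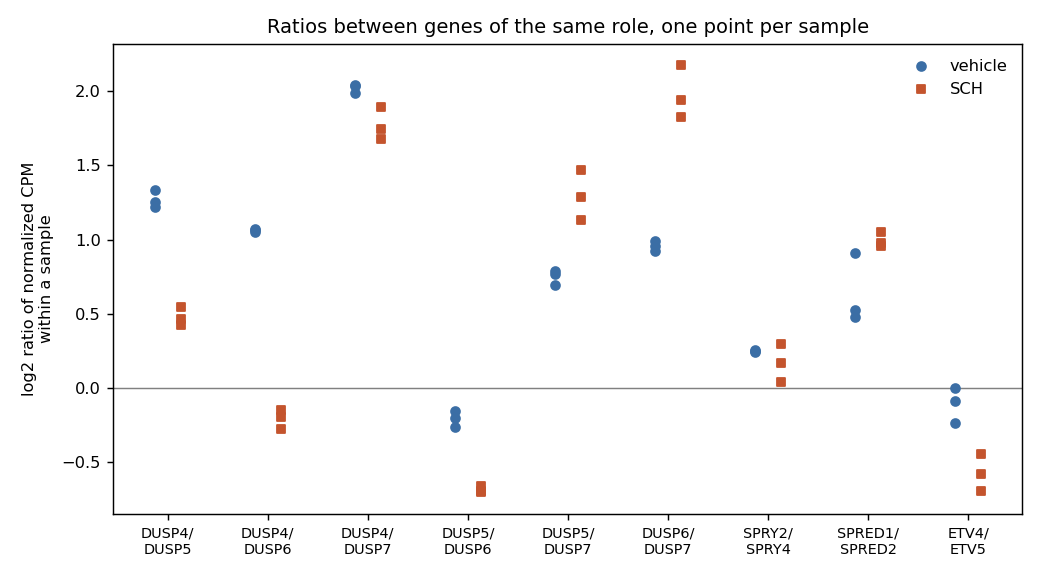
Log2 ratio of the normalized CPM of 2 members of the same role within a sample, for 9 pairs, with 1 point per sample. Circles are vehicle samples, squares are SCH samples, and the line at 0 marks equal CPM. The groups are apart in 8 pairs and overlap in SPRY2 against SPRY4, and the DUSP4 to DUSP6 ratio crosses 0.

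Both Sprouty genes fell, and by less than DUSP4 and DUSP7. The normalized CPM of SPRY2 were 92.4, 92.2 and 94.9 in the vehicle samples and 79.8, 83.3 and 71.3 in the SCH samples. Every SCH sample was below every vehicle sample, with a log2 fold change of -0.25 (SE 0.060) and an adjusted p of 7.83e-04. With library size alone the log2 fold change was -0.15. SPRY2 (ENSG00000136158) lies on the minus strand of chromosome 13, from 80335976 to 80340951. The normalized CPM of SPRY4 were 77.8, 77.9 and 79.6 in the vehicle samples and 71.0, 67.8 and 69.4 in the SCH samples. These groups too do not overlap, and the log2 fold change was -0.18 (SE 0.055), with an adjusted p of 0.00816. The call of SPRY4 was lost with library size alone, where the value was -0.07 and the adjusted p 0.259, and without the second SCH sample, where they were -0.15 and 0.066. SPRY4 (ENSG00000187678) lies on the minus strand of chromosome 5, from 142310427 to 142326455. The log2 ratio of SPRY2 to SPRY4 differed by -0.08 (SE 0.074) between the groups, which overlap, with p = 0.4 in the exact two-sided permutation test. With a sample left out, this difference lay between -0.145 and -0.0174.

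The SPRED genes, which hold back RAS itself, lay on the other side of 0. The normalized CPM of SPRED1 were 71.2, 69.8 and 87.6 in the vehicle samples and 105, 108 and 106 in the SCH samples. The third vehicle sample stood apart from the other two, so that the coefficient of variation in the vehicle samples was 13.01%, where counting error alone gives 2.67%. All SCH samples were still above it, and SPRED1 rose by a log2 fold change of 0.48 (SE 0.068), with an adjusted p of 1.83e-06. Without the third vehicle sample the log2 fold change was 0.60. SPRED1 (ENSG00000166068) lies on the plus strand of chromosome 15, from 38252326 to 38357249.

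SPRED2 did not pass the test. Its normalized CPM were 51.0, 48.5 and 46.7 in the vehicle samples and 54.3, 55.0 and 51.0 in the SCH samples. The lowest SCH sample reached the highest vehicle sample, and the log2 fold change was 0.13 (SE 0.063), with an adjusted p of 0.0762. It passed with library size alone, where the value was 0.24, and without the third SCH sample, where it was 0.18. SPRED2 (ENSG00000198369) lies on the minus strand of chromosome 2, from 65310851 to 65432637. The log2 ratio of SPRED1 to SPRED2 differed by 0.36 (SE 0.14) between the groups, which do not overlap, with p = 0.1 in the exact two-sided permutation test.

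The 2 transcription factor genes of the PEA3 group moved apart. The normalized CPM of ETV4 were 70.4, 73.8 and 67.0 in the vehicle samples and 54.1, 56.4 and 59.9 in the SCH samples, and the groups do not overlap. Its log2 fold change was -0.31 (SE 0.061), with an adjusted p of 1.43e-04, and -0.20 with library size alone. ETV4 (ENSG00000175832) lies on the minus strand of chromosome 17, from 43527844 to 43579620, and shares 1.89% of its exonic bases with DHX8 on the other strand. The normalized CPM of ETV5 were 74.7, 73.9 and 78.8 in the vehicle samples and 87.4, 84.3 and 81.7 in the SCH samples. ETV5 rose by 0.16 (SE 0.056) on the log2 scale, with an adjusted p of 0.0194, the smallest change among the members that passed. ETV5 was at 0.26 with library size alone. Its call was lost with upper quartile normalization and when the first SCH, the first vehicle or the second vehicle sample was left out, with log2 fold changes of 0.12, 0.14, 0.15 and 0.14. ETV5 (ENSG00000244405) lies on the minus strand of chromosome 3, from 186046308 to 186110318, and shares 2.83% of its exonic bases with DGKG on the same strand.

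The ratio of the PEA3 genes carried the same contrast. The log2 ratio of ETV4 to ETV5 was -0.09, -0.0011 and -0.23 in the vehicle samples and -0.69, -0.58 and -0.45 in the SCH samples. ETV5 held more counts than ETV4 in every SCH sample by a wider margin than in any vehicle sample, although the third vehicle sample already lay towards ETV5. The difference was -0.47 (SE 0.098), with p = 0.1 in the exact two-sided permutation test.

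Summed by role on the FPKM scale, the Sprouty genes stood at 41.2 ± 0.59 in the vehicle samples and 35.2 ± 2.01 in the SCH samples, and the SPRED genes at 18.0 ± 0.88 and 22.6 ± 0.59 (SD, n = 3). The PEA3 genes stood at 31.5 ± 0.55 and 29.4 ± 0.23 FPKM. In each of these roles the groups do not overlap. Scaled by library size alone, the Sprouty and SPRED groups were still apart, at 41.1 ± 0.87 against 37.5 ± 2.11 FPKM and 18.0 ± 0.99 against 24.1 ± 0.63 FPKM, while the PEA3 genes stood at 31.4 ± 0.40 and 31.4 ± 0.29 FPKM and overlapped. Over all 10 members the summed level was 246.4 ± 2.66 FPKM in the vehicle samples and 243.7 ± 7.81 FPKM in the SCH samples, and there the groups overlap, but with library size alone it was 245.7 ± 4.30 and 259.7 ± 8.27 FPKM, with no overlap.

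The order of the members by level differed between the groups. In the vehicle samples it ran from DUSP5, DUSP4, DUSP6 and SPRY2 down through ETV4, DUSP7, ETV5 and SPRY4 to SPRED2 and SPRED1, on the FPKM scale, and each neighbour was apart from the next in every sample except the last pair, at 9.14 ± 0.41 and 8.91 ± 1.15 FPKM. In the SCH samples DUSP6 stood above DUSP4 in every sample, and SPRED1 above DUSP7 and SPRY4 in the means. Below SPRY2, ETV4 could not be told from ETV5, and SPRED1, DUSP7, SPRY4 and SPRED2 each overlapped with the next, between 9.57 and 12.8 FPKM. DUSP4 was above 93.6% of the tested genes in the vehicle samples and above 89.0% in the SCH samples. DUSP6 was above 90.8% and 94.8%.

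Of 7 genes for RAS proteins and kinases of the cascade itself, 3 changed, against 58.7% of all tested genes, with a median log2 fold change of 0.00012. MAP2K1, which encodes MEK1, rose by 0.31 (SE 0.058), and BRAF by 0.30 (SE 0.10). Other genes share 11.5% of the exonic bases of MAP2K1. MAPK3, which encodes ERK1, fell, with a log2 fold change of -0.45 (SE 0.086) and 34.2, 36.7 and 30.1 normalized CPM in the vehicle samples against 22.9, 27.5 and 23.3 in the SCH samples. The call of BRAF was lost in both fits on log2 FPKM and without the first or the second vehicle sample, where the values were 0.27 and 0.21. HRAS and NRAS had log2 fold changes of -0.10 and 0.00012, ARAF of 0.05 and MAP2K2, which encodes MEK2, of -0.07, none of which passed. Without the third vehicle sample, 5 of the 7 passed.

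The lists of related genes are set beside all tested genes, of which 58.7% changed, 29.3% higher and 29.4% lower, and nothing particular to a list is read from its counts. Of 17 tested genes for RAS exchange factors, adaptors and GTPase activators (RASGRP1 and RASAL1 did not pass the filter on low counts), 9 rose and 3 fell, with a median log2 fold change of 0.19. The exchange factor genes SOS2 and RASGRP3 rose by 0.92 (SE 0.063) and 0.82 (SE 0.14), and the adaptor gene GAB1 by 0.58 (SE 0.095), while its relative GAB2 fell, with -0.65 (SE 0.084). Among 13 tested scaffolds and modulators (KSR2 did not pass the filter), 6 rose and 4 fell, with a median of 0.18. They include SHOC2, whose product helps to activate RAF, with 0.58 (SE 0.064), CBLB, a ubiquitin ligase gene, with 0.67 (SE 0.097), and PEBP1, a RAF inhibitor gene, with -0.49 (SE 0.047). TESK1, whose product binds Sprouty proteins, rose by 0.94 (SE 0.072), with 15.4% of its exonic bases shared with another gene. Another gene shares 9.49% of the exonic bases of PEBP1.

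Of 9 tested paralogs of the members outside the set (DUSP9 did not pass the filter), 7 rose and 1 fell, against 29.3% and 29.4% of all tested genes, with a median log2 fold change of 0.55. DUSP1, an immediate early gene for a phosphatase of several MAP kinases, rose by 1.204 (SE 0.082), from 31.0, 32.3 and 33.6 FPKM in the vehicle samples to 74.6, 87.6 and 62.1 FPKM in the SCH samples, and the groups do not overlap. DUSP16, a phosphatase gene for stress-activated kinases, rose by 0.64 (SE 0.083), and SPRED3 by 0.81 (SE 0.10). SPRY1 fell as SPRY2 and SPRY4 did, with a log2 fold change of -1.08 (SE 0.084), from 7.71 ± 0.53 to 3.68 ± 0.24 FPKM (SD, n = 3). SPRY3, singled out after its values were seen, was higher after SCH on few counts, 29 over the 3 vehicle samples and 102 over the 3 SCH samples.

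Of 13 other genes that ERK output is read from, 8 rose and 4 fell, against 29.3% and 29.4% of all tested genes, with a median log2 fold change of 0.56. EGR1, an immediate early transcription factor gene, rose by 1.92 (SE 0.080), from 10.0, 9.48 and 8.98 FPKM in the vehicle samples to 36.8, 40.7 and 30.8 FPKM in the SCH samples. FOS, an AP-1 subunit gene, rose by 1.74 (SE 0.11). CCND1, the cyclin D1 gene, MYC and PHLDA1 fell, with log2 fold changes of -0.83 (SE 0.047), -0.69 (SE 0.057) and -0.31 (SE 0.046), and other genes share 10.3% of the exonic bases of CCND1 and 16.5% of those of PHLDA1. EPHA2, at -0.05 (SE 0.053), did not pass.

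**Figure D4:**
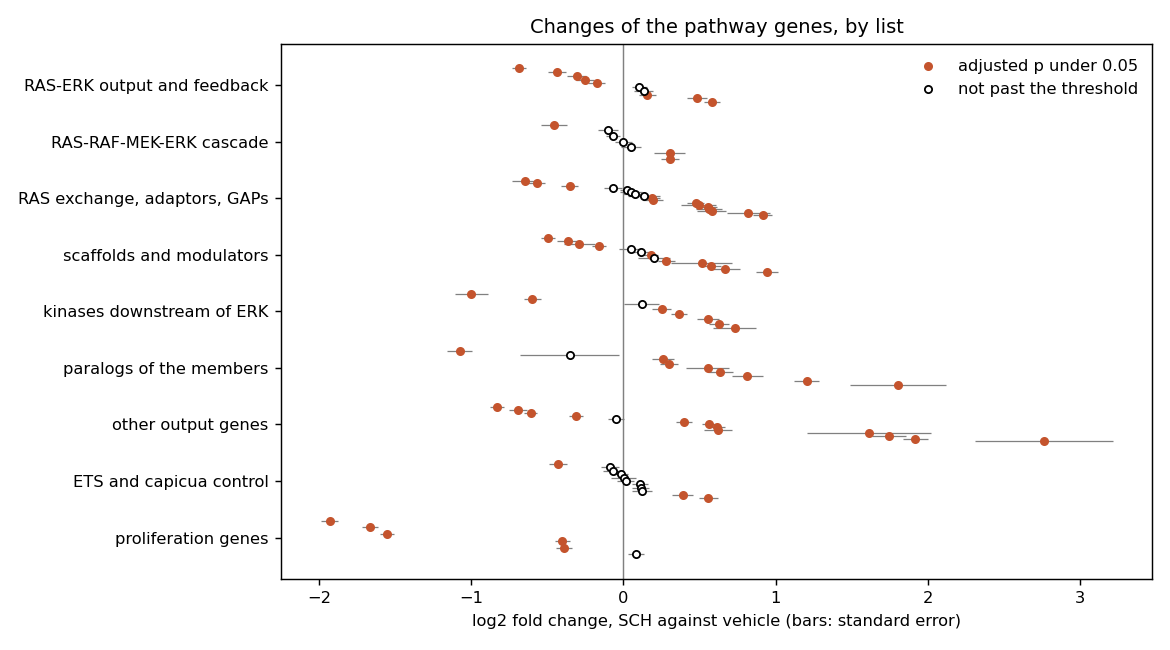
Log2 fold change of SCH against vehicle for every tested gene of the set (top line) and of 8 lists of related genes. Each point is 1 gene, the bar is its standard error, and open points are not past an adjusted p of 0.05. The members lie between -0.69 and 0.58, on both sides of 0, and the paralogs and the other output genes reach further to the right. Some of these far points rest on few counts, such as EGR3 with 9 over the 3 vehicle samples and 63 over the 3 SCH samples. SPRY3 had 29 and 102, while EGR1 had 1706 and 6419.

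Of 8 tested kinases downstream of ERK, 5 rose and 2 fell, against 29.3% and 29.4% of all tested genes, with a median log2 fold change of 0.31. RPS6KA6 and RPS6KA1, for ribosomal S6 kinases, rose by 0.73 (SE 0.14) and 0.63 (SE 0.068), while RPS6KA2 and RPS6KA4 fell, with -0.998 (SE 0.11) and -0.60 (SE 0.055). Of 11 tested genes that control ETS targets (DET1 did not pass the filter), 3 changed, against 58.7% of all tested genes, with a median of 0.014. CIC, whose product capicua is known to repress ETV4, ETV5 and DUSP6 and is inactivated by ERK, rose by 0.56 (SE 0.062), and ETV3 by 0.39 (SE 0.068), while ERF, an ETS repressor gene that ERK controls, fell, with -0.43 (SE 0.061). Of the ETS and capicua list, 6 genes passed with library size alone and 5 without the third vehicle sample.

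Of 6 proliferation genes, 5 fell and none rose, against 29.4% and 29.3% of all tested genes, with a median log2 fold change of -0.98, and PLK1, AURKA, CCNB1 and MKI67 had values of -1.93 (SE 0.057), -1.66 (SE 0.050), -1.55 (SE 0.048) and -0.40 (SE 0.049). Other genes share 12.5% of the exonic bases of PLK1. The summed level of the list was between 417.3 and 438.3 FPKM in the vehicle samples and between 220.5 and 227.0 FPKM in the SCH samples, with CCNB1 the most abundant in the vehicle samples. The part of the cell cycle in the members' values was not tested. Genes that span over 200 kb on the genome were lower as a class, with a median log2 fold change of -0.36 over 1021 genes, of which 55.9% were lowered. Of the tested genes named here, BRAF, CBLB, GAB2 and RPS6KA2 span over 200 kb. The longest members, SPRED2 and SPRED1, span 121.8 and 104.9 kb, and genes between 100 and 200 kb had a median of -0.0078. The part of gene span in these values was not tested.

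Promoter sequence was then read for the members that have a window of 250 bases before to 50 bases after a start in RefSeq (GRCh38.p14), which gave 9 windows for DUSP6, DUSP7, SPRY2, SPRY4, SPRED1 and SPRED2. DUSP4, DUSP5, ETV4 and ETV5 had no window and were not searched. The windows were searched on both strands for the capicua octamers TGAATGAA, TGAATGGA, TCAATGAA and TCAATGGA, the ETS site CCGGAAGT and its core GGAA, the AP-1 site TGANTCA and the cAMP response element TGACGTCA. TCAATGAA, TCAATGGA and GGAA were added after the values were seen, and GGAA overlaps with the ETS site. Among the 6 members searched, only DUSP6 held a capicua octamer in a window, TCAATGGA, at 2 places. Of all 34943 RefSeq windows, 0.504% hold it. These places are shown in the direction of the gene with the octamer in capitals, where it reads as its reverse complement. Both lie within the span of DUSP6 in GENCODE 29, at chr12:89352510-89352533 and chr12:89352485-89352508, minus strand. The bases before the RefSeq start touch a GENCODE 29 exon.
DUSP6 match 1: agaatgtaTCCATTGAgacgctcg
DUSP6 match 2: tgtttgtaTCCATTGAggagctgc
The first bases of the octamers are at 24 before and at 2 after the RefSeq start.

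DUSP7 is shown because it was the only member with a window that held no match to any of these letters. It lacked even the core GGAA that 95.4% of all windows hold. The 250 bases before its start, chr3:52056572-52056821 on the minus strand, lie outside GENCODE 29 exons and read as follows.
DUSP7 upstream: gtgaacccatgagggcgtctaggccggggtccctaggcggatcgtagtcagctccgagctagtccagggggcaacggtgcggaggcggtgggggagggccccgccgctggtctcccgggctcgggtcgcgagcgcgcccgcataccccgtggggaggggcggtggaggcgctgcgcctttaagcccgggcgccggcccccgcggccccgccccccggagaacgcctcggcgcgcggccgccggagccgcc
TGANTCA was found in 1 of 2 windows of SPRED2, at 2 places, and in 7.72% of all windows. TGAATGAA, TGAATGGA, TCAATGAA, CCGGAAGT and TGACGTCA, which 1.65%, 1.02%, 0.721%, 4.11% and 1.84% of all windows hold, were in none of the members' windows. Windows of SPRY2 and SPRY4, which fell, and of SPRED1 and DUSP6, which rose, all held GGAA. A match is a description of the letters, and the absence of one says only that they are not in this window. The part of these letters in the members' values was not tested.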

How the data were processed

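Libraries of poly-T purified mRNA from 6 samples were sequenced on an Illumina HiSeq instrument. The submitters' processing notes name CASAVA 1.8, HISAT2 2.0.5, featureCounts 1.5.0-p3 and DESeq2 1.20.0 with GRCh38. The strand setting of the counting is not given in the sources used here. The deposited tables hold the authors' raw counts, not normalized, and their FPKM values, which were proportional to count over length. Their scale was 0.995 to 1.01 times that of the total count in the vehicle samples and 0.937 to 0.941 times in the SCH samples. All 58735 genes have the start and end of GENCODE 29. The labels give RPMI-1640 medium, the methods DMEM.

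Counts were tested in R 4.3.3 with edgeR 4.0.16 (TMM factors, filterByExpr, quasi-likelihood test of 3 SCH against 3 vehicle samples, no covariates, Benjamini-Hochberg adjustment over 14736 genes, threshold 0.05). The standard error is the absolute log2 fold change over the square root of F. Ratios between members were compared with exact two-sided permutation tests. Within each group, no library was a copy of another (chi-square per degree of freedom 2.12 to 5.75), and libraries of different groups were not compared in this way. The lowest values were 2.12 for vehicle replicates 1 and 2 and 2.48 for SCH replicates 2 and 3. The common biological coefficient of variation was 5.17%. The members, the lists and the tests were chosen with earlier results of these data known, and some genes of the cascade are not reported here. Named outright were all members, the 7 cascade genes, CIC, PHLDA1, EPHA2, SPRY1 and DUSP1, and from each other list the 4 changed genes with the largest change and a mean count of at least 100. Alternatives were RLE, library size only, upper quartile, no filter, a minimum of 10 counts per sample, limma 3.58.1 with trend on log2(FPKM + 1) and log2(FPKM + 0.1), DESeq2 1.42.0, a replicate block, a log2 fold change of at least 1, and each sample left out. Figures were made with Python 3.11.15.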

Additional observations from a re-analysis of the deposited data

How the results depend on the processing

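All 10 members kept their direction in every alternative fit, and 6 (DUSP4, DUSP6, DUSP7, SPRY2, SPRED1 and ETV4) also kept an adjusted p under 0.05. DUSP4 ranged from -0.72 to -0.58, DUSP6 from 0.55 to 0.69, DUSP7 from -0.50 to -0.33, SPRED1 from 0.43 to 0.60, SPRY2 from -0.30 to -0.15 and ETV4 from -0.34 to -0.20 on the log2 scale. Between 7 and 9 members passed in these fits, but no member, and 1292 genes in all, also reached an absolute log2 fold change of 1. With library size alone, the median over all tested genes went to 0.099 and the share of changed genes that were higher went from 49.9% to 62.6%. It gave 5 members higher in place of 3, a member median of 0.067, which is of the opposite sign, and 6 changed genes of the ETS and capicua list, and moved SPRY2 to -0.15, ETV4 to -0.20 and ETV5 to 0.26. Applied to the FPKM sums, an alternative added after the values were seen, it turned the difference of the 10-member sum (SCH minus vehicle) from -2.77 to 14.0 FPKM and moved that of the phosphatases from 0.697 to 11.5 and that of the PEA3 genes from -2.05 to -0.0149. Upper quartile normalization gave a member median of -0.068. DUSP5 passed with library size alone and with log2(FPKM + 1) (0.21 and 0.11).

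With a sample left out, where the group of 2 shares the spread of the other group, 7809 to 8489 genes, 7 to 9 members, 2 to 5 cascade genes and 3 to 5 genes of the ETS and capicua list passed. The upper ends of the 2 lists, 5 and 5, came without the third vehicle sample. Of 36 other named genes, 30 kept direction and call in these fits. HRAS passed without SCH replicate 1 and without vehicle replicate 3 (-0.17 in both), MAP2K2 without vehicle replicate 3 (-0.10) and ARAF with library size alone (0.15). With log2(FPKM + 1), which shrinks low levels, BRAF was at 0.14, RASGRP3 at 0.30, RPS6KA6 at 0.36, CBLB at 0.34, GAB1 at 0.38 and RPS6KA2 at -0.55. Those that changed sign were not past the threshold on the other side of 0, with the value of NRAS at -0.0050 with at least 10 counts in every sample, -0.032 with upper quartile, and from -0.037 to 0.072 with a sample left out (-0.017, -0.037 and -0.024 without SCH replicate 2, vehicle replicate 1 and vehicle replicate 2). EPHA2 (0.054), HRAS (0.0011) and MAP2K2 (0.035) changed sign with library size alone, EPHA2 (0.0030) without SCH replicate 3 and ARAF (-0.0083) without vehicle replicate 3, where leaving out samples gave EPHA2 -0.098 to 0.0030 and ARAF -0.0083 to 0.10. The causes were not tested. DESeq2 called 7919 genes, of which 7912 were shared with edgeR.

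Whether the replicate numbers pair the samples cannot be settled with 3 samples per group. The deviations of same-numbered samples correlated at 0.14, -0.06 and 0.12 over 10714 genes. Vehicle replicates 1 and 2 correlated best with SCH replicate 1, at 0.14 and 0.16. Vehicle replicate 3 correlated best with SCH replicate 2, at 0.15, and was at -0.24 with SCH replicate 1. A batch shared across the groups was not tested. With the replicate number as a block, 8705 genes and 8 members passed (3 higher, 5 lower), with a member median of -0.036. None of the 9 ratios between members changed sign under an alternative. At the members' depth, between 939.7 and 5413 counts on average, counting error was between 1.22% and 3.34% of a sample's value, and it covers counting only.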
